A study of Homo sapiens with 28 samples.

Results

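Peaks of N6-methyladenosine (m6A) on the transcribed strand at promoters were collected from chromatin-associated RNA (caRNA), which co-purifies with chromatin after the soluble RNA has been removed. A peak was included when its summit lay from 1000 bases upstream to 100 bases downstream of an annotated transcript start on the same strand as the peak. On chromosomes 1 to 22 and X, 76977 of 495694 peaks met this rule (15.5%). Of these, 22460 had their summit at a start or up to 100 bases past it (4.53% of all peaks). The other 54517 (11.0%) were classed as upstream of the next start ahead, even where a start behind the summit was closer. Summits of all libraries on one strand were joined, where neighbours lay within 100 bases of each other, into 116478 regions, of which 11737 were upstream and 4521 downstream. A region was listed in a library when a peak of that library overlapped it. The median span of a sense promoter region was 18 bases and the longest 454, so a region marks a summit and 1 wide peak can cover more than 1 region.

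The study profiled m6A by immunoprecipitation of rRNA-depleted caRNA (MeRIP-seq) in 3 established human lines and asked what RBFOX2, an RNA-binding protein, does with m6A on promoter-associated RNA. The lines were HepG2, from a hepatoma, K562, from a myelogenous leukaemia, and NB4, from an acute promyelocytic leukaemia. The 14 immunoprecipitated (IP) libraries came from untreated HepG2 WT (n = 2) and K562 WT (n = 2), from K562 Control (n = 2) and K562 RBFOX2 KD (n = 2), and, in NB4, from Control (n = 3) and RBFOX2 KD cells (n = 3). KD cells carried a short hairpin RNA against RBFOX2 and Control cells a non-targeting hairpin. No RNA level of RBFOX2 was among the files used here, so the depth of the knockdown was not checked. The study calls its replicates biological, and P-values measure the spread between these libraries.

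RNA polymerase II can start at several places around a gene, and annotation records many starts inside genes besides the outermost one. RNA found upstream of a start on the same strand can thus be RNA of the same gene from a start farther upstream, readthrough from a neighbour, or transcripts of the promoter itself. The writer complex methylates adenosine in the sequence DRACH, in which D is A, G or T, R is A or G and H is A, C or T. Antibodies against m6A also bind N6,2′-O-dimethyladenosine, a modified form of the first transcribed adenosine next to the cap, so a peak over a start can hold either mark.

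The sequences at the most recurrent upstream summits show what these windows look like on the transcribed strand. The 4 shown first are hg38 windows centred on upstream regions that were listed in 14 of 14 libraries and lay outside their own gene. The windows overlap no annotated exon on either strand. Each is given 5′ to 3′ with DRACH matches in capitals.
STXBP5, chr6:147203847-147203947, plus strand: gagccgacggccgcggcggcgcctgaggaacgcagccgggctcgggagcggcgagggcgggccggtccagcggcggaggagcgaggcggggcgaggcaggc
ENSG00000273901, chr19:58499773-58499873, plus strand: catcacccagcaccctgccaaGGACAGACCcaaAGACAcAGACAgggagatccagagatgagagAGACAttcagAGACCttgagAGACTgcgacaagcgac
SPIRE2, chr16:89817838-89817938, plus strand: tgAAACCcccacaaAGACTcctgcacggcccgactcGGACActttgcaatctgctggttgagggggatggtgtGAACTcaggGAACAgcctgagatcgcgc
SPIRE2, chr16:89817990-89818090, plus strand: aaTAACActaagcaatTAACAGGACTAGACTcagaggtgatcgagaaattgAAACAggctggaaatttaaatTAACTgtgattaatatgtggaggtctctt

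The STXBP5 window held 0 DRACH matches, and the other 3 held between 5 and 7. The nearest methylatable adenosine lay 9 bases from the summit at ENSG00000273901, and 12 and 3 bases from it in the SPIRE2 windows. For downstream summits, 30 bases centred on the summit are shown for 4 of the highest ranked regions, again with DRACH in capitals.
TWNK, chr10:100987790-100987819, plus strand: agtcggggcctagggcaaagGGACTacaaa
AFF1, chr4:87115025-87115054, plus strand: gccgccaagccgtggtggtccaggaGGACA
ZBTB44, chr11:130261088-130261117, minus strand: actttagaattacctggcccatctgAGACC
MYO9A, chr15:71898792-71898821, minus strand: aaggagtcaccAAACAagcagcaggagaga

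Each of these 4 windows held 1 match, whose adenosine lay 7, 12, 12 and 2 bases from the summit at TWNK, AFF1, ZBTB44 and MYO9A. The windows of the other 4 downstream regions named later, AXIN1, TACC3, SLMAP and SIPA1L3, held 0 matches in 30 bases. A match is a description of the letters and not a mapped site.

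Summits became denser toward the start from which they were measured, with no baseline of random positions to compare. Pooled over libraries, the farthest 100 bases of the upstream window held 2813 summits, the 100 bases next to the start 13217, and the stretch from the start to 100 bases past it 22460. In single libraries the density per 100 bases past the start was between 5.73 and 11.2 times that in the farthest 100 bases upstream. The density in the first 100 bases upstream was between 3.63 and 5.37 times it. The median upstream summit lay between 265 and 302 bases before the start, and between 21.8% and 26.8% of upstream summits lay within 100 bases of it. The outer limits of the window were not natural borders. The 50 bases just inside the upstream limit held 1334 summits and the 50 bases beyond it 1259. The 50 bases just inside the downstream limit held 11057 and the next 50 bases 11442.

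**Figure D1:**
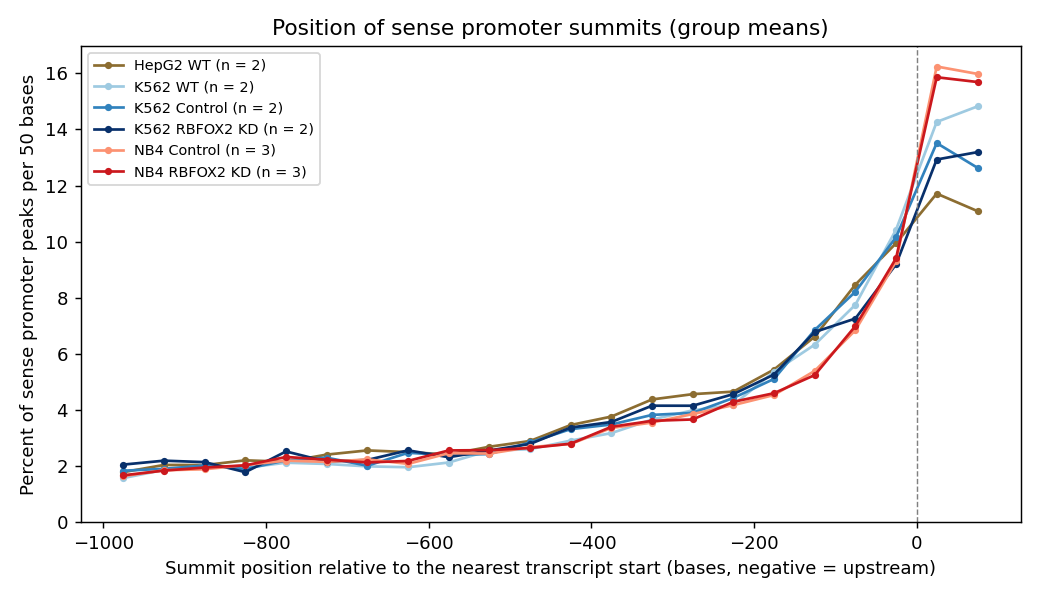
Percent of sense promoter peaks per 50 bases (vertical axis) against the summit's distance in bases from the transcript start to which it was assigned (horizontal axis, negative upstream). Lines are the mean of the libraries of each of the 6 groups. All groups climb toward the start, and HepG2 WT has the lowest and NB4 the highest values past it.

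Most sense promoter peaks were assigned to a start inside a gene, and most annotated starts also lie inside genes. Of upstream peaks 24.2%, and of downstream peaks 12.8%, were assigned to the outermost start of a gene. Of all 218339 distinct starts in the annotation, 28.4% were outermost. A start counts once for each of its peaks in the former and once in the latter, so these shares are in unlike units. The climb toward the start was steeper at internal starts. There, summits from the start to 100 bases past it were 10.8 times as many as in the farthest 100 bases upstream, compared with 2.88 times at outermost starts. For the 100 bases just upstream the ratios were 6.32 at internal and 1.76 at outermost starts. These counts pool the 14 libraries and carry no test. Upstream distances ran to the next start ahead, so crowded starts shorten them wherever summits lie. Without a baseline of random positions, the ratios cannot tell this from a preference of the peaks.

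The place of the upstream summits on their own strand followed from this. Of the 54517 upstream peaks, 41319 (75.8%) had their summit inside the gene whose start they preceded, 28375 (52.0%) in an exon and 12944 (23.7%) in an intron of it. A further 7070 (13.0%) lay in another gene on the same strand. The remaining 6128 (11.2%) lay outside genes, 1897 of them within 5 kb past the end of a gene and 4231 in neither place. The peak itself reached across the start in 20281 cases (37.2%). An upstream summit was thus in most cases a summit in the body of an annotated transcript, and peaks outside genes numbered between 308 and 598 per library.

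**Figure D2:**
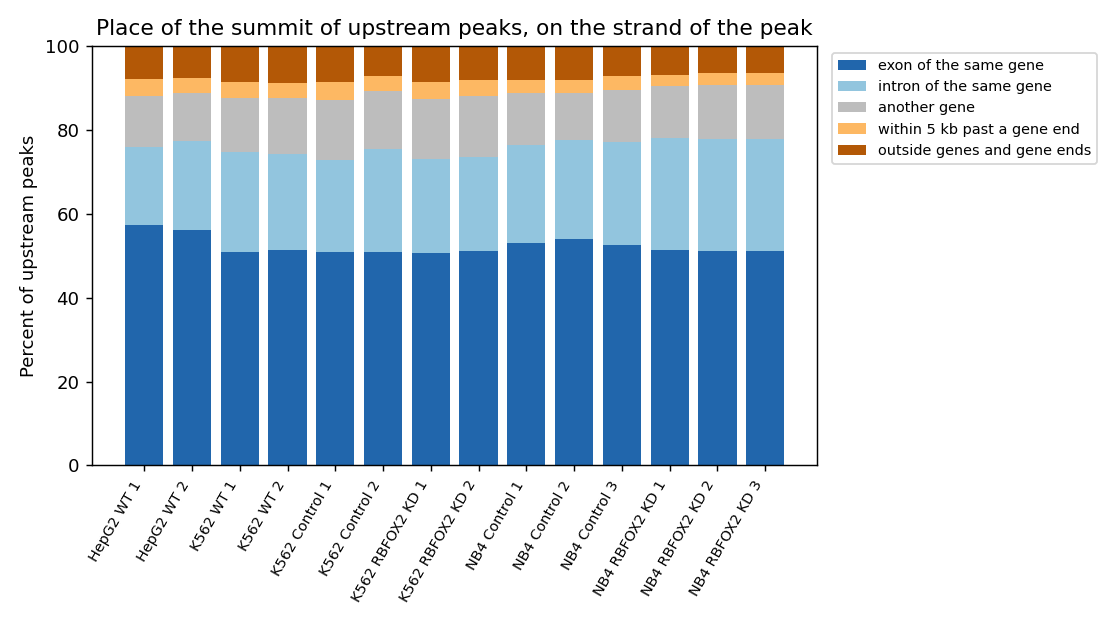
Percent of the upstream peaks of each of the 14 libraries (stacked bars, vertical axis from 0 to 100) by where the summit fell among annotated genes of its own strand. Exons of the same gene take more than any other place in every library, between 50.6% and 57.3%, and the 2 places outside genes together take between 9.28% and 13.0%.

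The makeup of the upstream class was compared over the groups. Exons of the same gene held 57.3% and 56.1% of upstream summits in the HepG2 WT libraries and at most 53.9% in each of the other 12. In NB4, introns of the same gene held 23.9% ± 0.717 of upstream summits in Control and 26.7% ± 0.152 in RBFOX2 KD (SD, n = 3 each). Summits outside genes made up 11.0% ± 0.393 in NB4 Control and 9.42% ± 0.188 in NB4 RBFOX2 KD. The NB4 Control values for summits outside genes were 11.2%, 11.2% and 10.5%, and the KD values 9.63%, 9.28% and 9.34%. In K562 the same share was 13.0% and 10.8% in Control and 12.6% and 11.9% in KD, within the spread. It was not computed over all peaks, so the NB4 difference cannot be assigned to upstream peaks. The NB4 KD lists were also longer and came from more recovered reads, as given below. Upstream peaks reached across the start in 31.2% to 33.7% of cases in the NB4 libraries, 36.8% to 38.1% in HepG2 and 38.3% to 44.9% in K562, so the lines did not overlap. In NB4 this share was higher in KD, at 33.3% ± 0.366 against 31.8% ± 0.5002 in Control (SD, n = 3 each), and in K562 the groups overlapped. Whether a peak reaches across a start depends on its width. The median width of upstream peaks averaged 259 bases in NB4 Control and 265 in NB4 KD. It averaged 324 in HepG2 WT, 320 in K562 WT, 338.5 in K562 Control and 325 in K562 KD. The part of width in these shares was not tested. All shares in this paragraph were compared after their values were seen and were given no test.

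The comparison of the 6 groups began with the share of each library's peaks that were upstream. It was 11.4% and 12.2% in HepG2 WT, and 11.0% and 11.1% in K562 WT. In K562 it was 10.4% and 11.1% in Control and 10.2% and 10.1% in RBFOX2 KD. In NB4 it was 12.1%, 12.2% and 11.2% in Control, and 10.4%, 10.5% and 10.8% in RBFOX2 KD. All 5 KD libraries lay below every Control library of their own line. The difference between KD and Control was -0.606 percentage points in K562 (10.2% ± 0.0749 against 10.8% ± 0.479, SD, n = 2 each, exact permutation test, two-sided, p = 0.333, the smallest that 2 against 2 allow). In NB4 it was -1.23 points (10.6% ± 0.213 against 11.8% ± 0.555, SD, n = 3 each, exact permutation p = 0.1, the smallest that 3 against 3 allow). The K562 value was -0.945 without K562 Control 1, -0.267 without K562 Control 2, -0.125 with basic transcripts and -0.257 without upstream summits in exons. Without those summits the NB4 value was -0.253, and with basic transcripts -0.754.

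Over both lines the mean difference in the upstream share was -0.917 points, with an exact permutation p of 0.0167 when labels were exchanged within lines. This is the smallest p the design allows, and the value adjusted over the 21 tests of shares was 0.35, so it did not pass. A difference between the 2 lines in this change was not detectable (0.623 points, exact permutation p = 0.417). The share is a ratio, and its parts moved differently in the lines. In NB4 the upstream peaks numbered 3562, 3891 and 3734 in Control and 4131, 3964 and 3971 in KD, while all peaks numbered 29511, 31899 and 33400 in Control and 39707, 37622 and 36697 in KD. In K562 the upstream peaks numbered 3842 and 4272 in Control and 3940 and 3596 in KD, with 36844 and 38468 peaks in Control and 38576 and 35577 in KD in all. NB4 KD lists thus held more upstream peaks and, by a wider margin, more peaks elsewhere. Reads behind the lists were recovered from the peak statistics and are given in M, which stands for mega. They ran from 10.8 to 15.6 M in NB4 Control, the latter approximate, and from 16.8 to 21.9 M in NB4 KD. Their part in the difference was not tested beyond the alternatives in which the lists were matched for depth. Under those, the other thresholds, transcript sets and windows, the mean difference lay between -0.921 and -0.255 points, the latter without upstream summits in exons, and leaving out single libraries gave -1.09 to -0.748. The exact permutation p in all of these lay between 0.0167 and 0.0333.

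**Figure D3:**
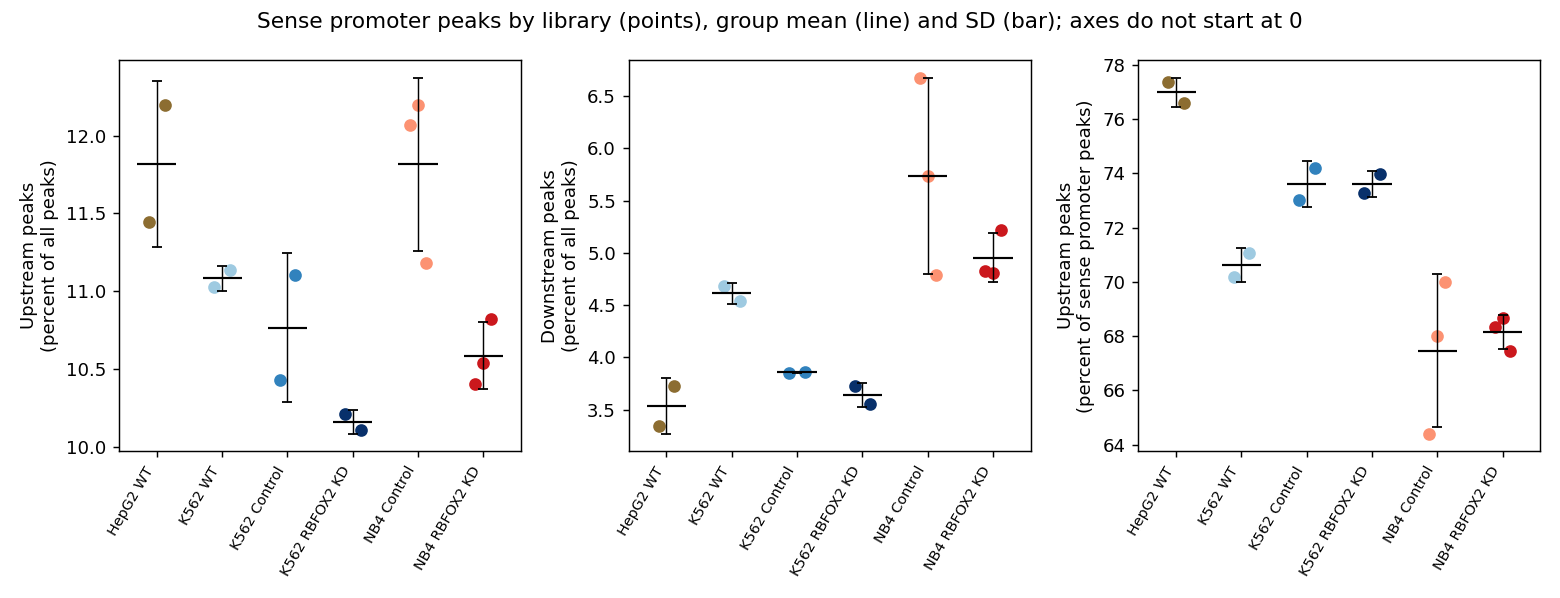
Upstream peaks as a percent of all peaks (left), downstream peaks as a percent of all peaks (middle) and upstream peaks as a percent of sense promoter peaks (right) in the 6 groups; points are libraries, lines the mean and bars the SD, on axes that do not start at 0. The KD libraries lie below their Control libraries on the left, and the right panel orders the lines HepG2, K562, NB4 from high to low.

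Downstream peaks were a smaller and more variable share. They made up 3.35% and 3.72% of peaks in HepG2 WT and 4.69% and 4.54% in K562 WT. The values were 3.85% and 3.86% in K562 Control, 3.73% and 3.56% in K562 RBFOX2 KD, 6.67%, 5.74% and 4.79% in NB4 Control, and 4.83%, 4.81% and 5.22% in NB4 RBFOX2 KD. NB4 Control 1 had the highest value and, with 10.8 M, the fewest reads. The KD difference was -0.215 points in K562 (exact permutation p = 0.333) and -0.783 points in NB4 (exact permutation p = 0.4). Over both lines it was -0.499 points (exact permutation p = 0.1, adjusted 0.538). Without NB4 Control 3 that mean was -0.734 points (exact permutation p = 0.0167), and without NB4 Control 1 it was -0.265 (exact permutation p = 0.233). The NB4 value alone was -1.25 without NB4 Control 3 and -0.314 without NB4 Control 1. With basic transcripts the K562 value was -0.00938 and the mean over both lines -0.279. Between lines this change differed by 0.567 points (exact permutation p = 0.45).

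The division of sense promoter peaks between the 2 sides of the start was compared between lines. Upstream peaks made up 77.4% and 76.6% of them in HepG2 WT and 70.2% and 71.1% in K562 WT. They made up 73.0% and 74.2% in K562 Control, 73.3% and 74.0% in K562 RBFOX2 KD, 64.4%, 68.0% and 70.0% in NB4 Control, and 68.3%, 68.7% and 67.4% in NB4 RBFOX2 KD. K562 WT lay 6.37 points below HepG2 WT (exact permutation p = 0.333, the smallest possible). NB4 Control lay 6.15 points below K562 Control (exact permutation p = 0.2, smallest possible 0.1), and its 3 libraries did not overlap with the 2 of K562 Control. The downstream share ran the other way, with K562 WT 1.08 points above HepG2 WT and NB4 Control 1.88 points above K562 Control. With these group sizes neither comparison could reach 0.05. The gap between NB4 Control and K562 Control was 12.8 points with basic transcripts (exact permutation p = 0.1), and that between K562 WT and HepG2 WT 10.5 points at a -log10 p, rescaled to the shallowest library, of at least 30. The libraries of K562 and NB4 lay close, at 70.2% in K562 WT 1 and 69.99% in NB4 Control 3, and at that limit they overlapped (70.3% and 70.9%). KD differed from Control in this division by 0.00851 points in K562 and 0.677 points in NB4, less than the pooled SDs of 0.687 and 2.05 points. K562 Control lay 2.996 points above untreated K562 (exact permutation p = 0.333, the smallest that 2 against 2 allow).

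Features that the rule did not use were compared between upstream peaks, downstream peaks and all other peaks within each library. Upstream peaks were wider than downstream peaks in 14 of 14 libraries, by 31.5 to 46.0 bases in the median, and downstream peaks were narrower than other peaks in 14 of 14. Within a library, peaks were ranked by the -log10 q-value, and the rank was expressed as a percentile. The median percentile was between 52.7 and 56.4 for upstream peaks and between 48.8 and 49.5 for other peaks, and upstream was higher in 14 of 14. Upstream peaks outside genes stood lower, with medians between 38.7 and 51.9, and were below other peaks in 13 of 14 libraries. Median fold enrichment over the local background hardly separated the classes. It was higher upstream than downstream in 8 of 14 libraries.

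Base composition differed between the classes. The median GC content within 150 bases of the summit was between 58.1% and 64.1% for downstream, 54.8% and 58.1% for upstream, and 46.2% and 52.8% for other peaks. The ratio of observed to expected CpG, a measure of CpG island character, had medians between 0.552 and 0.761 downstream, 0.384 and 0.446 upstream, and 0.242 and 0.301 elsewhere. Upstream peaks outside genes were closer to the downstream class, with medians between 0.546 and 0.721. The order of downstream above upstream above other held in 14 of 14 libraries for both measures.

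The m6A motif was present around summits of both classes above its level nearby. Windows of 75 bases on each side of the summit were searched on the transcribed strand, and the same windows centred 300 bases away on each side served as the background. GGACT, a strong form of DRACH, occurred in 22.3% to 28.9% of upstream windows against 12.7% to 13.9% of their flanks. It occurred in 21.1% to 29.4% of downstream windows against 13.2% to 14.5% of flanks, and in 22% to 29.2% of other windows against 11.3% to 12.7%. The excess over the flanks was between 8.44 and 16.1 points upstream, 7.34 and 15.9 points downstream, and 10.0 and 17.5 points elsewhere. It was larger upstream than downstream in 12 of 14 libraries, and smaller downstream than elsewhere in 14 of 14. For upstream peaks outside genes the excess was between 8.77 and 16.7 points. DRACH itself is frequent by chance: it occurred in 93.0% to 97.1% of upstream windows and in 88.0% to 89.6% of their flanks, in 88.9% to 94.8% of downstream windows and 84.9% to 88.1% of flanks. In other windows it occurred in 95.3% to 98.7%, against 91.5% to 93.8% of flanks. The DRACH excess was larger upstream than elsewhere in 14 of 14 libraries, and larger downstream than elsewhere in 10 of 14. The order against other peaks thus differed between GGACT and DRACH.

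The starts beside these peaks were compared with all annotated starts. Upstream peaks lay at 10141 distinct starts and downstream peaks at 6513, with 1582 starts having both. Protein-coding genes supplied 78.8% of starts with an upstream peak and 82.8% of those with a downstream peak, against 66.8% of all starts. A start on the other strand within 1 kb, the arrangement of a bidirectional promoter, was found for 20.7%, 33.0% and 22.5% respectively. For the 1363 starts with an upstream peak outside genes it was found for 48.5%. Of those, 67.4% were canonical starts, and among all canonical starts 19.7% had such a neighbour. TATAAA lay 40 to 20 bases before the start at 0.572% of starts with an upstream peak, 0.353% of those with a downstream peak, and 1.03% of all starts. Among canonical starts of protein-coding genes, the annotated first base was A at 50.7% of all, 50% of the 682 with an upstream peak and 58.5% of the 620 with a downstream peak. The dinucleotide CA at the base before and the first base was found at 37.6%, 35.9% and 45.3%. Over starts of every kind the downstream values were not higher. There the first base was A at 33.9% of all, 29.9% of those with an upstream peak and 31.4% of those with a downstream peak. CA was found at 17.3%, 13.2% and 16.5%. These are descriptions across starts, many of which share a gene.

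Recurrence was higher among upstream regions than among all regions. Of upstream regions, 1643 of 11737 (14%) were listed in all 14 libraries, and of downstream regions 464 of 4521 (10.3%), compared with 10.0% of all regions. All 3 lines listed 26.8% of upstream, 22.3% of downstream and 20.5% of all regions at least once. A single library listed 16.8%, 15.5% and 17.5%.

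Among the upstream regions listed in all 14 libraries, 201 overlapped no exon and no other gene on their strand, 133 of them in an intron of their own gene and 68 outside it. The 8 highest by mean percentile lay at 7 genes. The highest was 283 bases before a start of STXBP5 (chromosome 6, 147203893 to 147203925, plus strand), which encodes tomosyn, a SNARE-binding regulator of vesicle fusion. Its fold enrichment was 13.5 and 18 in HepG2 WT, 4.68 and 4.33 in K562 WT, 28.3 and 14 in K562 Control, 18.8 and 21.6 in K562 RBFOX2 KD, 45.4, 31.2 and 13.6 in NB4 Control, and 21.3, 18.8 and 26.6 in NB4 RBFOX2 KD. The K562 WT libraries were lowest and Control and KD overlapped in both lines. The gene STXBP5-AS1 covers the same bases on the other strand.

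The second region lay 682 bases before the canonical start of the lncRNA ENSG00000273901 (chromosome 19, 58499799 to 58499850, plus strand). Its fold was 11.1 and 14.5 in HepG2 WT, 24.4 and 24.6 in K562 WT, 29.7 and 29.6 in K562 Control, 31.8 and 38 in K562 RBFOX2 KD, 12.3, 27.3 and 12.9 in NB4 Control, and 19.96, 12.7 and 22 in NB4 RBFOX2 KD. The K562 KD libraries were highest by fold, and NB4 Control and KD overlapped. By percentile within the library, K562 KD (95.3 and 96.4) lay within the span of K562 Control (93.3 and 96.9) and below K562 WT (99.70 and 99.79). SLC27A5, a bile acid and fatty acid CoA ligase, covers the same bases on the other strand.

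SPIRE2, an actin nucleator, had 2 of the 8 regions, 291 and 139 bases before a start on chromosome 16 (89817886 to 89817895 and 89817997 to 89818065, plus strand), covered by the same peaks. The fold was 4.11 and 5.92 in HepG2 WT, 20.6 and 17.6 in K562 WT, 43 and 36.8 in K562 Control, 44.3 and 52.8 in K562 RBFOX2 KD, 15.2, 16.6 and 14.4 in NB4 Control, and 15.9, 10.5 and 19.5 in NB4 RBFOX2 KD. HepG2 was lowest, but fold values of different libraries are on different scales: the median over all upstream peaks was 3.80 in the lowest library and 8.41 in the highest. The other 4 regions lay in introns, before internal starts of THOP1 (thimet oligopeptidase, 213 bases), CEP72 (a centrosomal protein, 878 bases), IDUA (the lysosomal enzyme alpha-L-iduronidase, 492 bases) and GOSR1 (a Golgi SNARE, 862 bases). Their folds ran from 5.34 to 39.2 over the libraries.

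The 8 highest downstream regions listed in all 14 libraries were all in exons of protein-coding genes, each next to a start that is not the canonical one. TWNK, the mitochondrial DNA helicase, ranked first with a summit 10 bases past the start (chromosome 10, 100987802 to 100987805, plus strand). Its fold was 4.61 and 6.34 in HepG2 WT, 32.6 and 35.5 in K562 WT, 59 and 31.2 in K562 Control, 51.2 and 32.2 in K562 RBFOX2 KD, 11.9, 10.8 and 5.77 in NB4 Control, and 9.87, 11.5 and 16.7 in NB4 RBFOX2 KD. By fold, every K562 library was above every NB4 and HepG2 library, and Control and KD overlapped. By percentile within the library the lines were not separated, with K562 RBFOX2 KD 2 at 99.65 below NB4 Control 2 at 99.84.

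AXIN1, a scaffold of the complex that degrades beta-catenin, followed at 20 bases (chromosome 16, 346301 to 346304, minus strand), with folds of 7.92 and 10.6 in HepG2 WT and 44, 31.5, 37.4 and 42 in the K562 Control and KD libraries. AFF1, a component of the super elongation complex and a leukaemia fusion partner, had its summit at 97 bases. TACC3, a mitotic spindle protein, had it at 17 bases, SLMAP at 8, ZBTB44 at 10, the unconventional myosin MYO9A at 32 and SIPA1L3 at 95. Over these 6 genes the fold ran from 4.32 to 49.2, with the lowest library of each in HepG2 or NB4.

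**Figure D4:**
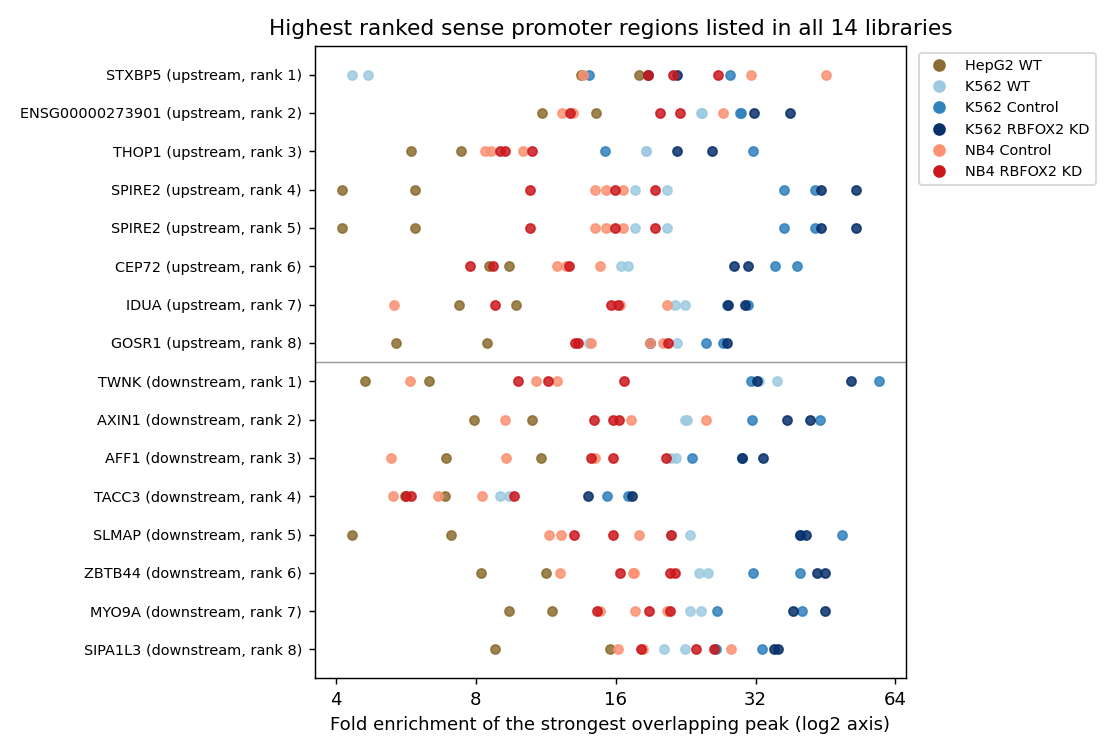
Fold enrichment of the strongest overlapping peak (horizontal log2 axis) in each of the 14 libraries (points, coloured by group) for the 8 upstream and 8 downstream regions that ranked highest among those listed in all libraries. A K562 Control or KD library holds the highest value at every gene but STXBP5.

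Some sense promoter regions were listed in every library of 1 line and in no other. For HepG2 these were 444 upstream and 107 downstream regions (3.78% and 2.37%, against 4.11% of all regions). For K562 they were 569 and 155 (4.85% and 3.43%, against 6.79%), and for NB4 315 and 143 (2.68% and 3.16%, against 3.16%). The share among sense promoter regions was below or at the background in all 3 lines. HepG2 has 2 libraries to meet the rule, and the other lines 6 each.

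The highest region found only in HepG2 lay in an exon of ONECUT1, a hepatocyte transcription factor, 218 bases before an internal start (chromosome 15, 52789614 to 52789619, minus strand), with folds of 6.52 and 8.78. The next were CYP2AB1P, a pseudogene of a cytochrome P450 (150 bases before its start, folds 9.74 and 8.45), the zinc finger gene ZNF827 (9.30 and 12.1) and SDF4, a calcium-binding Golgi protein (9.06 and 10.6). Downstream, they were PRKAR1A, a regulatory subunit of protein kinase A (3.74 and 7.56), the protein repair enzyme PCMT1 (7.09 and 6.32), the lncRNA ENSG00000290461 (7.21 and 8.24) and the kinase scaffold MAPK8IP2 (6.22 and 8.57).

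In K562 the highest upstream region lay 903 bases before the canonical start of TNNT1, slow skeletal troponin T (chromosome 19, 55150108 to 55150124, minus strand), and within 5 kb past the end of TNNI3. Its fold was 10.8 and 13.8 in K562 WT, 41.8 and 49.5 in Control and 58.6 and 60.6 in KD. By percentile of -log10 q within the library, Control (99.78 and 99.99) and KD (99.98 and 99.97) overlapped. PGGHG, a glucosidase of collagen glycans, came next at 862 bases inside ENSG00000255026, with folds between 22.2 and 53. The other 2 lay at the lncRNA ENSG00000227748 under the same peaks. Downstream, the highest was the canonical start of the lncRNA ENSG00000290113, with folds between 32.3 and 60.9, followed by ENSG00000290981, CUTALP and the pseudogene EIF5AP2. EIF5AP2 is a processed pseudogene, and reads of its parent gene cannot be told apart from its own here.

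In NB4 the highest upstream region lay 248 bases before the lncRNA ENSG00000287763 (chromosome 2, 87348964 to 87348998, minus strand), with folds of 38.7, 44 and 29.4 in Control and 24.6, 32.5 and 31 in KD. ZBTB16, a transcriptional repressor known as PLZF, followed with 7.52, 9.27 and 6.75 in Control and 10.8, 8.34 and 16.6 in KD at an exon 358 bases before an internal start. NLRP3, the sensor of an inflammasome, had folds between 17.5 and 28.3 with a summit 8 bases before a start, and LINC01357 between 11.5 and 27.5. Downstream, ENSG00000280407 was followed by the fatty acid desaturase FADS2 (12 to 19.8), the adaptor SH2D3C (12.6 to 17.6) and the neurotensin receptor NTSR1 (10.4 to 23.6). Control and KD overlapped at ENSG00000287763 and at ZBTB16.

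Regions that changed state on knockdown were counted as lost (listed in every Control library of a line and in no KD library) or gained (the reverse). In K562, 157 of 7321 upstream regions listed in that line were lost (2.14%) and 56 of 2537 downstream regions (2.21%), against 1.83% of all regions. Gained were 61 upstream (0.833%) and 27 downstream (1.06%), against 1.57%. In NB4, 48 of 7196 upstream regions (0.667%) and 18 of 3090 downstream regions (0.583%) were lost, against 0.604% of all. Gained in NB4 were 169 upstream (2.35%) and 61 downstream (1.97%), against 3.88%. Losses were near the background, and gains lay below it in both lines and both classes.

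These counts varied with the length of the lists and with each library. Depth matching at each list's own limit left every count within 1.5 times its value. It removed few peaks in these lines, and kept 39279 of 39707 in NB4 KD 1 and 29510 of 29511 in NB4 Control 1. The lists stayed unequal, so this matching could not test the part of depth in the counts. Leaving out any 1 library requires fewer to agree, and upstream losses in K562 then numbered from 241 to 1130, the highest without K562 Control 1. With lists of equal size, upstream regions lost and gained numbered 89 and 29 in K562 and 73 and 59 in NB4, so that losses were no longer fewer than gains in NB4. The share over all regions was not computed under these settings, so these counts cannot be read against a background or as particular to promoter regions. In the main lists, none of the 11737 upstream or 4521 downstream regions was lost in both lines, compared with 6 of all 116478 regions. Gained in both were 2 upstream and 2 downstream, compared with 30 of all. Counts this small show no difference between promoter regions and all regions.

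**Figure D5:**
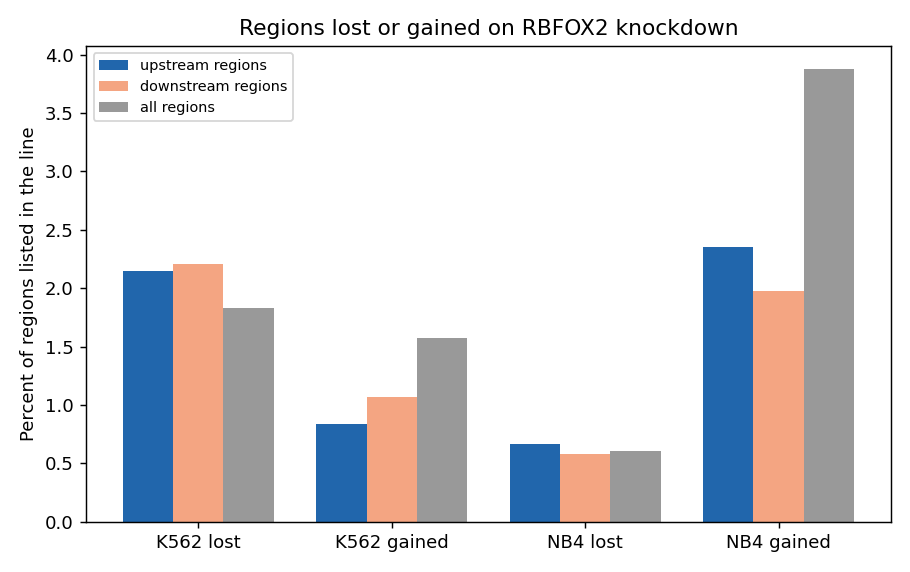
Percent of regions lost or gained on RBFOX2 knockdown (bars from 0) in K562 and NB4 for upstream, downstream and all regions listed in the line. Gains of both promoter classes stand below the bar of all regions, and losses stand near it.

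Of the 3 upstream losses that ranked highest in K562, 2 lay inside a neighbouring gene. The first, 196 bases before the processed pseudogene RPS26P19, lay inside POLR2D, which encodes a subunit of RNA polymerase II (chromosome 2, 127847280, minus strand). Its fold was 27 and 22.9 in K562 Control, it was listed in no KD or WT library of K562, and both HepG2 and 5 of 6 NB4 libraries listed it. The second lay 964 bases before ICAM4 and inside ICAM1, which encodes an adhesion molecule (chromosome 19, 10285991 to 10286000, plus strand). It had folds of 24.2 and 24.9 in K562 WT, 36.6 and 33.2 in K562 Control and was not listed in KD. In NB4 the same region was listed in no Control library and had folds of 3.99, 10.5 and 5.99 in KD. The third, in an intron of PPP1R12C, a myosin phosphatase subunit, had folds of 14.5 and 14 in WT and 6.10 and 13.7 in Control. Downstream losses were led by TBCA, a tubulin folding cofactor (15.3 and 22.2), ARHGDIA (4.69 and 5.29), and CHKB-CPT1B, which overlaps choline kinase beta (9.31 and 5.48).

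Gains in K562 were led by ATOSA (5.46 and 5.82 in KD), EMILIN1, an extracellular matrix protein (5.33 and 5.68), and the lncRNA EOLA2-DT (2.99 and 6.03). Each of these 3 was also listed in both K562 WT libraries and in every NB4 and HepG2 library, so that of the 14 libraries only the 2 of K562 Control did not list it. Downstream, GUSBP1 (22.2 and 23.1), SEC63, a factor of protein transport into the endoplasmic reticulum (4.78 and 6.31), and ARPC3, a subunit of the actin-branching Arp2/3 complex (4.26 and 6.06), led the gains. GUSBP1 belongs to a multicopy family, and its reads may come from a related copy.

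In NB4 the upstream losses were led by TSC22D2 (5.29, 5.48 and 7.60 in Control), GSE1 (4.21, 4.49 and 3.25) and IRX5, a homeobox gene (11, 9.84 and 8.62). The IRX5 region lay 373 bases before the canonical start and outside genes (chromosome 16, 54930484 to 54930504, plus strand), and no library outside NB4 Control listed it. The first 2 were listed in every K562 and HepG2 library. Downstream they were MYO18B (6.78, 6.84 and 5.22), TBC1D9B (5.17, 6.81 and 5.60) and IRF1, an interferon-induced transcription factor (7.65, 6.69 and 6.88). NB4 gains were led upstream by the zinc finger gene ZNF320 (13.7, 5.89 and 17.0 in KD) and C21orf58 (2.86, 5.13 and 6.50), followed by ICAM4. Downstream they were SH3TC1 (7.80, 11.2 and 10.5), the pseudogene CHMP4BP1 inside FBXO34 (4.002, 3.10 and 7.79) and DNA ligase 1, LIG1 (2.02, 2.34 and 3.28). ZNF320 and C21orf58 were listed in every K562 library. Reads at the pseudogene CHMP4BP1 may come from another gene.

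Among the genes that the study shows as examples, the cytokine gene TGFB1 had sense promoter regions, and SOCS1, H2AC8 and H2BC8 had none. TGFB1 had 4 upstream regions and no downstream one (chromosome 19, minus strand). A pair under the same peaks (41353393 to 41353411 and 41353737 to 41353748) was listed in all 14 libraries. It lay in an exon, 511 and 184 bases past the canonical start, and counted as upstream only of an internal start at 41353044. The fold there was 8.66 and 10.2 in HepG2 WT, 22.7 and 21.8 in K562 WT, 31.9 and 27.6 in K562 Control, 33.3 and 27.5 in K562 RBFOX2 KD, 13.1, 13.6 and 11.2 in NB4 Control, and 10.9, 12.4 and 10.3 in NB4 RBFOX2 KD. Control and KD overlapped in both lines. Another region lay 766 bases before the canonical start, outside TGFB1 and inside the neighbouring gene B9D2 (41354580 to 41354757). It was listed in 9 libraries with folds between 3.29 and 4.71, in neither HepG2 library, in 1 of 2 K562 Control and 1 of 2 KD libraries, and in 2 of 3 NB4 Control and 3 of 3 KD libraries. The fourth, in an intron, was listed in 3 libraries.

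The m6A machinery had upstream regions at 8 of 15 genes (53.3%) and downstream regions at 7 (46.7%), against 24.7% and 15.8% of all protein-coding genes. The lists were chosen with earlier results of these data known and are described without a test. The demethylase ALKBH5 had an intronic region 253 bases before its canonical start in 14 libraries, with folds between 1.79 and 31.4. The demethylase FTO and the methyltransferase METTL16 had theirs in internal exons before internal starts, with folds between 3.98 and 29.9 and between 5.68 and 30.6. Of Polycomb repressive complex 2 genes, 7 of 11 (63.6%) had upstream and 2 (18.2%) downstream regions. EED, its H3K27me3-binding core subunit, had an upstream region in 14 libraries with folds between 6.59 and 47.3, and the accessory subunits AEBP2 and JARID2 had regions in all 14, with folds between 4.10 and 35.3 and between 5.27 and 34.

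Of 16 TGF-beta signalling genes, 10 (62.5%) had upstream and 8 (50%) downstream regions, beside the same 24.7% and 15.8% of protein-coding genes. SMAD3, a signal transducer, had a downstream region 62 bases past its start with folds of 15.4, 11 and 14.1 in NB4 Control, 11, 12.6 and 10.9 in NB4 RBFOX2 KD, 7.14 and 11.5 in HepG2 WT, 5.32 and 6.48 in K562 WT, 3.68 and 4.24 in K562 Control and 5.05 and 5.09 in K562 RBFOX2 KD. Every NB4 library was above every K562 library. SMAD4, the common partner of the SMADs, had a downstream region in 14 libraries (3.56 to 27.9) and the SMAD inhibitor SKIL an upstream one (4.28 to 23.8).

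Of 24 haematopoietic transcription factors, 11 (45.8%) had upstream and 12 (50%) downstream regions, beside 24.7% and 15.8% of protein-coding genes, among them MEIS1 (3.95 to 15.2 in 14 libraries), RUNX1 (1.68 to 19.6 in 14) and LYL1 (4.44 to 10.2 in the 12 libraries of the leukaemia lines and none of HepG2). Of 16 hepatocyte transcription factors, 6 (37.5%) and 1 (6.25%) had regions. HNF4A (4.38 and 4.99) and ONECUT1 were listed in both HepG2 libraries and in no other. Of 22 immediate early genes, 7 (31.8%) and 1 (4.55%) had regions, near and below the shares of all protein-coding genes, led by JUND (3.43 to 23), KLF6 (2.51 to 31.3) and MYC (1.41 to 13.6), each in 14 libraries and in an exon. Of 19 small nucleolar RNA host genes, 2 had upstream and 2 downstream regions (10.5% each, against 11.2% and 6.26% of all genes), at TAF1D (13 libraries), SNHG5 (12) and SNHG12 (3), counting TAF1D on both sides.

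Markers of the lines checked the labels. Peaks anywhere in the gene were found at 4 and 8 of 12 hepatocyte markers in HepG2 and at 0 in all K562 and NB4 libraries. They were found at 6 to 10 of 12 erythroid markers in K562, against 2 or 3 in the other lines, and at 9 or 10 of 12 promyelocyte markers in NB4, against 1 to 4. Sense promoter regions lay at 3 of the erythroid genes upstream (25%) and 2 downstream (16.7%), near the 24.7% and 15.8% of all protein-coding genes. They lay at 5 (41.7%) and 3 (25%) of the promyelocyte genes, and at 0 of the 12 hepatocyte genes on either side. HBE1, an embryonic globin, had an upstream region in the 6 K562 libraries (10.6 to 19.7) and no other, and CEBPE, a granulocyte transcription factor, one in the 6 NB4 libraries (5.59 to 13.1) and no other. The other leading members of these lists were not particular to a line. SLC25A37, a mitochondrial iron importer, had an upstream region in all 14 libraries, and TFRC, the transferrin receptor, in 6 NB4 and 2 K562 WT libraries and in no K562 Control or KD library. CD33 was listed in 6 NB4 and 3 K562 libraries, and CSF3R in 5 NB4 and both HepG2 libraries. The HBE1 region overlaps other annotated globin-locus transcripts on its strand.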

How the data were processed

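The 28 samples were 14 IP and 14 input libraries, of which the IP libraries have peak lists used here. Per the submitters' processing notes and the study's methods, the authors trimmed reads (Trimmomatic 0.39), aligned them to hg38 with HISAT2 2.1.0, separated strands with SAMtools 1.9 and called peaks per library and strand with MACS2. The deposited lists give each peak's fold enrichment, -log10 p, -log10 q and summit. Whether input served as control is not given in the sources used here.

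Of 515981 peaks, 495694 on chromosomes 1 to 22 and X were kept and classed against GENCODE 44 transcript starts by the rule given in the Results. Summits lay in an exon on the peak's strand in 48.5% and on the other in 7.20%. Shares were compared by exact permutation tests over libraries, two-sided, with Benjamini-Hochberg adjustment over 21 tests. Effective reads per library (10.8 to 30.04 M) were solved from fold and p with the genome size and extension the authors gave MACS2, approximately for HepG2 WT and NB4 Control 3, whose pileups were not whole. Named regions ranked highest by percentile of -log10 q, averaged over the libraries that listed them: 8 per class listed in 14 libraries, 4 per class and line found in that line alone, 3 per class and line lost or gained, and from each gene list the 3 genes with a region in most libraries. A gene that this rule names is not reported here. Scripts (Python, numpy, pandas, scipy) were tested on simulated data. Members and lists were chosen with earlier results of these data known. Alternatives were another transcript set, threshold, list size, depth, window and single libraries.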

Additional observations from a re-analysis of the deposited data

Results flagged for a closer look

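The knockdown contrast ran in opposite directions in the 2 lines at 4 upstream regions and 2 downstream regions, which were lost in K562 and gained in NB4. The upstream regions lay at ICAM4 (inside ICAM1), ENSG00000262312, CTRL and TRMU, and the downstream ones at RUVBL2 and NPM1P27. NPM1P27 is named as a pseudogene of NPM1 and its region lay inside FAM172A, so its reads may come from another gene. The difference between the lines was not tested. Of all regions, 25 were lost in K562 and gained in NB4, and 1 was gained in K562 and lost in NB4. Losses in K562 numbered 157 upstream, 56 downstream and 1251 over all regions. Gains in NB4 made up 2.35% of upstream, 1.97% of downstream and 3.88% of all regions listed in that line. Counts this small were not compared with what these shares alone would give. Apart from ICAM4, the folds were between 2.59 and 7.62 where the regions were listed. Reads recovered from the peak statistics numbered 14.8 and 19.5 M in K562 Control and 16.4 and 12.6 M in K562 RBFOX2 KD, which overlapped. In NB4 they ran from 10.8 to 15.6 M in Control and from 16.8 to 21.9 M in RBFOX2 KD. The 15.6 M is that of NB4 Control 3 and is approximate, so whether the NB4 ranges are apart is not settled. The part of the reads in these calls was not tested.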

How the results depend on the processing

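The lower upstream share on knockdown over both lines kept its direction under all alternatives run. With the replicate number as a block (sign flips of same-numbered pairs) it was -0.917 points with an exact permutation p of 0.0625, the smallest that 5 pairs allow. The numbers did not pair the libraries: deviations of same-numbered libraries from their group means correlated at -0.0759 in K562 and at -0.0315, -0.0347 and -0.103 in NB4, and the block changed no other call. The upstream share of K562 WT against HepG2 WT changed sign, to 0.243 points with basic transcripts, 0.0950 with equal list sizes and 0.405 without upstream summits in exons. Without those summits the difference between lines in the KD change of the upstream share was -0.00491. The KD change of the upstream percent of sense promoter peaks changed sign in K562 (-0.437 with basic transcripts, -0.0278 with equal sizes, -0.436 with 500 bases upstream, -0.0764 without exons), in NB4 (-0.0254 with basic transcripts) and over both lines (-0.231 with basic transcripts). Leaving out single libraries gave ranges of -0.587 to 0.604, -0.855 to 1.94 and -0.423 to 0.974 for these 3, -1.93 to 0.864 for the difference between lines, -0.656 to 0.0214 for the upstream share of K562 Control against K562 WT, and -0.734 to -0.265 for the downstream share over both lines. The single values that changed sign were -0.587 (without K562 Control 1) and -0.335 (without K562 KD 2) in K562, and -0.855, -0.423 and 0.864 without NB4 Control 1.

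Counts of lost and gained regions moved more. The share over all regions was not computed under any of these alternatives, so the counts below have no background to be read against. Equal list sizes gave 89 upstream and 31 downstream lost in K562, 29 upstream gained in K562, 73 and 39 lost and 59 and 21 gained in NB4. The 2 alternatives chosen after seeing the data kept peaks whose -log10 p, rescaled to the shallowest library, was at least 15 or 30. At 15 they gave 74 upstream lost in K562, 80 upstream and 29 downstream lost in NB4, and 66 and 31 gained in NB4. At 30 they gave 37 and 22 lost in K562, 76 and 39 lost and 23 and 17 gained in NB4. Leaving out a library relaxes the rule and gave 241 to 1130 upstream and 82 to 349 downstream lost in K562, 195 to 297 and 81 to 136 gained in K562, 69 to 109 and 29 to 52 lost in NB4, and 218 to 298 and 82 to 116 gained in NB4. Of 64 named regions, 64 kept their call at a -log10 q of 5 and under planned depth matching, which removed few peaks in K562 and NB4. The number was 63 when a peak had to cover the median summit, 51 with equal list sizes, and 58 and 43 at rescaled 15 and 30. Lists of peaks hold no level for regions under the threshold, so a region not listed is not shown to lack m6A, and 2 or 3 libraries a group limit every p.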
